A study of Mus musculus with 25 samples.

Results

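RAW 264.7 macrophages exposed for 6 h to 0.35 mM hypochlorous acid (HOCl) were compared with the same cells exposed for 6 h to 0.14 mM HOCl. The comparison takes all arrays whose titles give those doses, 3 of 0.35 mM (one of them titled 00.35mM) and 3 of 0.14 mM, which is 6 of the 25 arrays of the series. The line is a mouse macrophage-like tumour line, so both groups are 1 immortal line rather than primary cells, and no transgene or mutation separates them. The medium, the confluency and the 6 h exposure were shared, and the labels name no difference other than the dose. Total RNA of each sample was measured on its own Affymetrix array (Mouse 430 2.0), and the design text calls the arrays biological replicates. The series also holds 4 arrays at 0 mM and 3 at every higher dose, of which 0.7 mM is the next. The question of the comparison is which transcripts separate these neighbouring low doses.

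HOCl is the oxidant that neutrophils make with myeloperoxidase, and it chlorinates and oxidizes amines and thiols. A macrophage that senses microbial or damage products switches on cytokine and chemokine genes through nuclear factor kappa B (NF-kB) and secretes interferon beta. Interferon beta then acts through its receptor on transcription factors that bind interferon-stimulated response elements and turn on antiviral genes. Electrophiles and oxidants also release the factor NRF2, which acts on genes of glutathione synthesis and heme breakdown.

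Promoter sequences of 7 genes are shown as examples of the gene groups described: 3 interferon-stimulated genes, 3 genes of secreted cytokines and 1 mitotic gene. The call of Cdc20 and the missed call of Cxcl10 lay close to the threshold. They come from RefSeq (build GRCm38.p6), are the last 130 bases before the annotated start of the gene (220 for Cxcl10), and are written 5′ to 3′ on the gene's own strand. Capitals mark matches on either strand to GAAA, any 2 bases and GAAA again (an interferon-stimulated response element, ISRE), GGG, any 3 bases and TTCC (an NF-kB, or kB, motif), CCAAT (the NF-Y motif) or TTTGAA (the cell cycle homology region, CHR). Matches are marked for the ISRE in Ifit1, Rsad2 and Gbp7, for the ISRE and kB in Cxcl10, for kB in Il6 and Ifnb1, and for CCAAT and CHR in Cdc20.
Ifit1 (chr19:34640759-34640888, plus strand): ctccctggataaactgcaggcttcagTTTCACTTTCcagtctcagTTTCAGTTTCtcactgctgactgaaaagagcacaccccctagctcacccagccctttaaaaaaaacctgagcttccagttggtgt
Rsad2 (chr12:26456453-26456582, minus strand): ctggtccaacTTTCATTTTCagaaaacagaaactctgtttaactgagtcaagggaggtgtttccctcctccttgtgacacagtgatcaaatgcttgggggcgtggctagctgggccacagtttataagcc
Gbp7 (chr3:142530206-142530335, plus strand): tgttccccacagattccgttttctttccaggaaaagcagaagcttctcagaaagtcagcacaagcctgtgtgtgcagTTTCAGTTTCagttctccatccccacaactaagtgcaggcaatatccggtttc
Cxcl10 (chr5:92348890-92349109, minus strand): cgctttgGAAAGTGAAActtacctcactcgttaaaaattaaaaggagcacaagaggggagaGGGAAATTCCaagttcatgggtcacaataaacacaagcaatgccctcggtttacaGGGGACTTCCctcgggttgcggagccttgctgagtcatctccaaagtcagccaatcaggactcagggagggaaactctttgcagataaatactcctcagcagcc
Il6 (chr5:30012984-30013113, plus strand): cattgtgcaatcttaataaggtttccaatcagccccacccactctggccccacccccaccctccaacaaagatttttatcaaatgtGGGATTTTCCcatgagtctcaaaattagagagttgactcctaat
Ifnb1 (chr4:88522795-88522924, minus strand): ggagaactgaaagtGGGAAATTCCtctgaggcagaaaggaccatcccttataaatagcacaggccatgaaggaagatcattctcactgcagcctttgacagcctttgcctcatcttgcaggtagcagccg
Cdc20 (chr4:118437344-118437473, minus strand): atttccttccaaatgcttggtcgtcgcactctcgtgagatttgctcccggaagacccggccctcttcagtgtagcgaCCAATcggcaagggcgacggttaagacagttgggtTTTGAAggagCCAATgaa

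The 250 bases before the start were searched for each motif in 27025 genes with a RefSeq promoter. The ISRE was found in 3.46% of all these genes, in 11.6% of the 190 genes with a promoter that were higher at 0.35 mM and in 1.75% of the 400 that were lower. Among interferon-stimulated effectors 9 of 31 promoters (29.0%) held the ISRE, and among interferon-inducible GTPases 6 of 6 did. The kB motif was in 5.31% of all promoters, in 6 of 15 chemokine promoters (40.0%), in 10.5% of the promoters of genes that were higher and in 7.75% of those of genes that were lower. CCAAT was in 37.5% of all promoters and in 21 of 25 promoters of mitotic genes (84.0%), but also in 81.2% of cholesterol gene promoters and 77.8% of those of lipid uptake and storage genes. CHR was in 18.3% of all promoters and 40.0% of mitotic ones, in 14.2% of those of genes that were higher and 9.5% of those of genes that were lower. It was also in 32.3% of the effector promoters and 3 of 6 GTPase promoters. Called genes come only from genes with a probe set. Among the 14452 of these with a promoter the shares were 3.13% for the ISRE, 5.76% for kB, 39.4% for CCAAT and 14.1% for CHR. A further motif, the antioxidant response element (TGAC, any 3 bases and GC), was searched and is not marked in the sequences above. It was in 11.5% of all promoters and 13.5% of those of genes with a probe set. In the NRF2 list 3 of 22 promoters held it (13.6%), against 15.8% for genes that were higher and 11.5% for genes that were lower. All of these are matches of letters within a window and not measured binding.

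Deposited values are log2 signals with the median of each array set to 0. On the 6 arrays the upper quartile was 1.70, 1.39 and 1.68 at 0.35 mM (replicates 1, 2 and 3), against 1.54, 1.78 and 1.75 at 0.14 mM, so that 0.35 mM replicate 2 had the narrowest distribution. The mean of 8 5′ poly-A spike probe sets, added RNA that is not of the cell, was 1.01, 0.83 and 1.75 at 0.35 mM, against 0.70, 0.77 and 0.62 at 0.14 mM. Replicate 3 of 0.35 mM therefore stood apart in its spike level, and arrays of 1.4 mM and above, with 0.7 mM replicate 3, shared that higher level. Pearson correlations over probe sets lay between 0.967 and 0.991 within 0.35 mM and between 0.991 and 0.997 within 0.14 mM, and between doses they lay between 0.957 and 0.978.

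With limma fitted to all 25 arrays, 1517 of 45037 probe sets (3.37%) had an adjusted p under 0.05 between 0.35 and 0.14 mM. Of these, 495 were higher (1.1%), 1022 were lower (2.27%) and 792 differed at least 2-fold (1.76%). Counted by gene, with the brightest probe set standing for its gene, 252 of 18193 genes rose (1.39%) and 481 fell (2.64%), together 733 (4.03%), while the median log2 difference of all genes was 0.0099. All 3 arrays of 0.35 mM lay above all 3 of 0.14 mM for 4345 probe sets (9.65%) and below for 5342 (11.9%). A fit to the 6 arrays alone called 2815 probe sets (6.25%), of which 1159 were higher (2.57%), 1656 lower (3.68%) and 1258 at least 2-fold apart (2.79%). By gene it called 1535 (8.44%), with 646 higher (3.55%) and 889 lower (4.89%). The higher share of calls was 32.6% as reported, 49.0% after quantile normalization, and 58.7% after centring on the median of the brighter probe sets, which moved the median difference to 0.11. The number of calls rested on few arrays: without 0.14 mM replicate 1, 2 or 3 it was 697, 25 and 28, and without 0.35 mM replicate 1, 2 or 3 it was 545, 318 and 860. With the spike level as a term 512 probe sets were called, and 1439 when arrays of high spike level, 0.35 mM replicate 3 among them, were left out. The counts for gene lists given next moved with these arrays too: of the interferon-stimulated effectors 0 to 27 were called higher when 1 array was left out, 3 with the spike term and 22 without arrays of high spike level, and of the cytokines 0 to 9, 0 and 10. Of 92 named genes that were called, 85 lost the call when 1 array or another was left out of the 25-array fit. The 7 that kept the call were Htr1b, Slc43a2, Cx3cr1, Tmem51, Hmox1, Gpx1 and Sesn1. Leaving out 1 array of the 6-array fit, a setting added after seeing the data, lost between 1 and 20 of the 92 calls. A gene is said to have risen or fallen where limma's adjusted p over all probe sets of the 25-array fit was under 0.05.

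Interferon-beta transcript was higher at 0.35 mM, and with it a broad set of antiviral genes. Ifnb1, which encodes the secreted ligand, had log2 signals of 0.94, 1.19 and 1.12 at 0.35 mM, against 0.07, -0.40 and -0.45 at 0.14 mM. The 3 arrays of 0.35 mM were all above those of 0.14 mM, a difference of 1.34 ± 0.30 (SE; adjusted p 0.0206 by limma), from a level near the array median. Stat2, a subunit of the factor that interferon activates, had 2.68, 2.43 and 2.49 at 0.35 mM, against 0.04, 0.49 and 0.54 at 0.14 mM, and rose 4.52-fold. Both were the only members of 21 measured interferon signalling genes to rise, and none fell (1.39% of all genes rose and 2.64% fell). Usp18, which damps signalling at the interferon receptor, averaged 7.08 ± 0.16 at 0.35 mM and 4.49 ± 0.08 at 0.14 mM (SD, n = 3 each), with an adjusted p of 0.0638 in the 25-array fit and 8.1e-05 in the 6-array fit. Irf7, which amplifies interferon genes, differed by 1.18 (adjusted p 0.124), and Irf3 by -0.43 and Irf9 by 0.64 without a call.

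Of 39 measured interferon-stimulated effectors 16 rose and 1 fell (1.39% and 2.64% of all genes did), with a median difference of 1.67. All 3 arrays of 0.35 mM were above those of 0.14 mM for 36 of the 39, against 9.65% of all probe sets. The 6-array fit called 33 higher, against 3.55% of all genes. Ifit1, whose product binds viral RNA that lacks a mature cap, had 5.70, 5.65 and 5.75 at 0.35 mM, against 0.19, 0.74 and 0.55 at 0.14 mM. This is a 37.0-fold rise (log2 5.21 ± 1.31 SE, adjusted p 0.0337), on the promoter printed above with its pair of response elements. Rsad2, the antiviral enzyme viperin, had 7.14, 6.89 and 7.39 at 0.35 mM, against 2.24, 2.51 and 2.45 at 0.14 mM, a 26.7-fold rise (adjusted p 0.0259), and all 3 of its probe sets were called. Ifit3 and Ifit2, relatives of Ifit1, rose by 4.97 and 4.61 on the log2 scale. Cmpk2, which lies beside Rsad2 and makes nucleotides, rose by 3.64, and the dynamin-like antiviral GTPases Mx1 and Mx2 rose by 3.02 and 2.51. Ifi204 and Ifi209, DNA-binding members of the interferon-inducible p200 family, rose by 3.98 and 5.33. Smaller rises were found for Oas1a (1.43), which makes the messenger that activates RNase L, and for Bst2 (1.06), which tethers budding virions. The exception was Ifi27l2a, with 4.81, 4.73 and 4.63 at 0.35 mM, against 6.79, 6.85 and 6.91 at 0.14 mM. It fell by 2.13 on the log2 scale (adjusted p 0.0252), with no overlap of the arrays.

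The 8 interferon-inducible GTPases, which act on the vacuoles of intracellular pathogens, had a median difference of 1.91. Gbp7 and Gbp3 rose (1.39% of all genes did) and the other 6 missed the call in the 25-array fit. All 8 had their 0.35 mM arrays above the 0.14 mM arrays, against 9.65% of all probe sets. All 8 were called higher in the 6-array fit, against 3.55% of all genes. Gbp7 had 3.83, 3.36 and 4.10 at 0.35 mM, against 0.38, 1.00 and 0.63 at 0.14 mM, an 8.55-fold rise (adjusted p 0.0265). Irgm1 averaged 2.29 higher with an adjusted p of 0.136, and Igtp 2.06 higher with 0.0976.

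Among 11 genes listed under cytosolic nucleic acid sensing 3 rose, where 1.39% of all genes did. That list also holds Daxx and Sp100, which are not sensors of this kind. Zbp1, a sensor of Z-form nucleic acid that can start necroptosis, had 4.03, 4.16 and 4.16 at 0.35 mM, against 0.85, 0.87 and 0.95 at 0.14 mM, a 9.35-fold rise (adjusted p 0.0173). Ifih1, the RNA sensor MDA5, rose 7.56-fold, and Daxx rose 3.12-fold. The DNA sensor gene Cgas (0.09) and its partner Sting1 (-0.47) were not called, and neither was the adaptor Mavs (-0.31). Mlkl, which carries out necroptosis, had 4.52, 4.28 and 4.64 at 0.35 mM, against 2.42, 2.66 and 2.58 at 0.14 mM, and rose by 1.93 (adjusted p 0.0188). With the death receptor gene Fas it made 2 rises among 18 inflammasome and cell death genes. Casp1 (0.38), Nlrp3 (0.23) and Gsdmd (0.11) were not called.

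In class I antigen presentation 1 of 15 genes rose (1.39% of all genes did), and the 6-array fit called 7 higher (3.55% of all genes). H2-M3, which presents formylated peptides, had 5.55, 5.39 and 5.40 at 0.35 mM, against 3.65, 3.83 and 3.86 at 0.14 mM, and was the 1 member of 15 to rise. The peptide transporter gene Tap1 (1.42, adjusted p 0.0587) and the immunoproteasome gene Psmb10 (1.13, adjusted p 0.0822) were called in the 6-array fit only. The chain genes H2-K1, H2-D1 and B2m, at 6.63 to 7.65 on average at 0.35 mM, differed by -0.22, -0.17 and -0.09 and were called in neither fit.

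**Figure D1:**
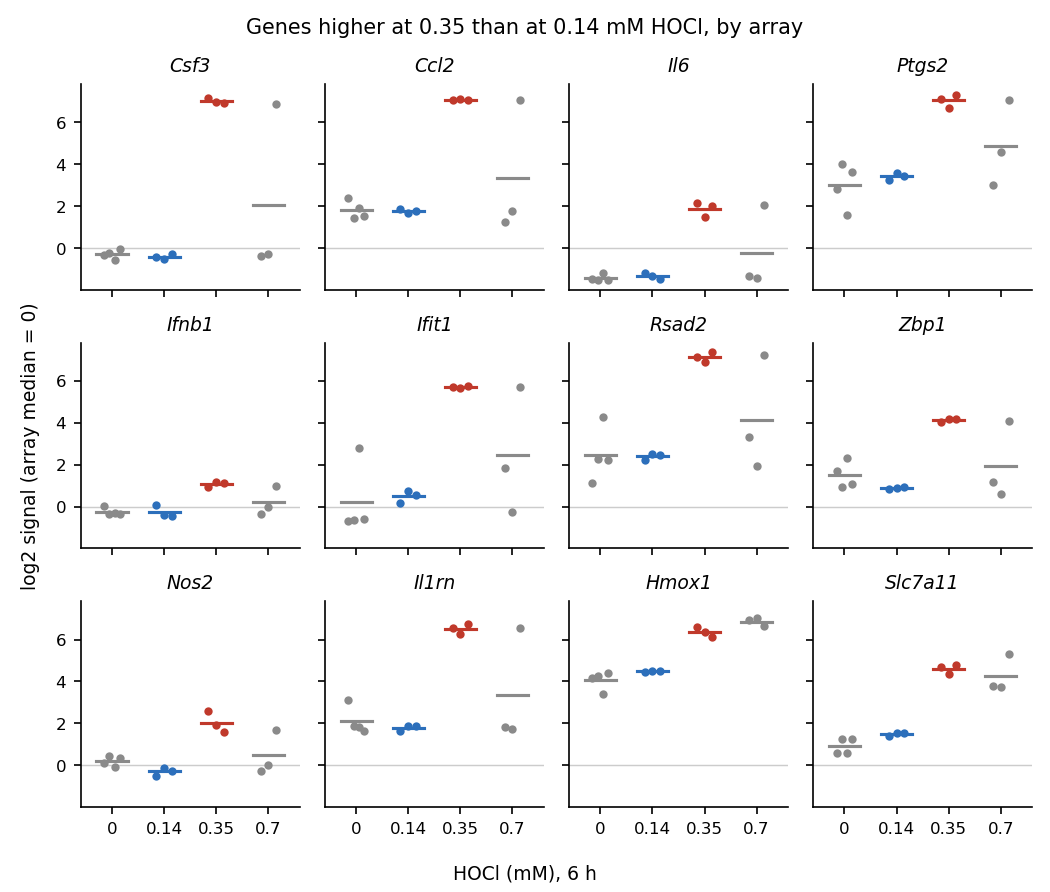
Log2 signal (vertical, array median 0) of 12 genes that were higher at 0.35 mM, by HOCl dose (horizontal, mM), with 1 point per array and a bar at the dose mean. The 3 arrays of 0.35 mM lie together above the 3 of 0.14 mM in each panel, and at 0.7 mM 1 array of 3 lies at the 0.35 mM level for Csf3, Ccl2, Il6 and Ifit1.

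Secreted cytokines gave the largest single difference. Csf3, granulocyte colony-stimulating factor, had 7.17, 6.96 and 6.94 at 0.35 mM, against -0.45, -0.53 and -0.29 at 0.14 mM. It was below the array median on every 0.14 mM array and among bright transcripts at 0.35 mM, a 174-fold rise (log2 7.45 ± 1.61 SE, adjusted p 0.0189). Il6 had 2.14, 1.49 and 2.01 at 0.35 mM, against -1.21, -1.33 and -1.46 at 0.14 mM, and rose 9.29-fold (adjusted p 0.0331). Il1b, the fever cytokine interleukin-1 beta, had 2.31, 2.19 and 2.19 at 0.35 mM, against -0.26, -0.27 and -0.27 at 0.14 mM, and rose 5.65-fold (adjusted p 0.0376). Il1rn, the secreted antagonist of the interleukin-1 receptor, rose 26.5-fold, with a mean of 6.52 ± 0.22 at 0.35 mM, against 1.79 ± 0.14 at 0.14 mM. Lif (3.13), Csf2 (2.56) and Osm (1.89) rose too, which makes 7 of 23 measured cytokines with no fall. Of all genes 1.39% rose and 2.64% fell. Tnf had 7.18, 6.97 and 6.90 at 0.35 mM, against 4.26, 4.12 and 4.28 at 0.14 mM. The arrays did not overlap, yet its adjusted p was 0.0612 in the 25-array fit and 5.33e-05 in the 6-array fit. Il10 (-0.14), Il12a (-0.02) and Il12b (-0.0046) lay under the array median at 0.35 mM and were not called.

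Of 22 chemokines 6 rose and none fell (1.39% of all genes rose and 2.64% fell). Ccl2, which recruits monocytes, had 7.06, 7.12 and 7.07 at 0.35 mM, against 1.88, 1.65 and 1.76 at 0.14 mM, a 40.0-fold rise (log2 5.32 ± 1.24 SE, adjusted p 0.0251). The monocyte attractants Ccl3, Ccl4 and Ccl5 rose by 2.35, 2.94 and 2.50, Ccl7 by 2.30 and Ccl12 by 0.86. Ccl3 was already at 5.85, 6.05 and 5.99 at 0.14 mM and stood at 8.28, 8.16 and 8.50 at 0.35 mM. Cxcl10, which draws activated T cells, had 6.71, 6.50 and 6.46 at 0.35 mM, against 2.50, 2.73 and 2.64 at 0.14 mM, with an adjusted p of 0.0518 in the 25-array fit and 1.32e-05 in the 6-array fit. The neutrophil attractant Cxcl2 differed by 3.77 (adjusted p 0.0768), whereas Cxcl1 differed by -0.0075 and stood at 2.08, 2.07 and 1.88 at 0.35 mM, against 2.19, 2.01 and 1.85 at 0.14 mM.

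Of 25 cytokine and chemokine receptors 2 rose and 4 fell (1.39% and 2.64% of all genes did), with a median of -0.13. Cx3cr1, the fractalkine receptor of resident monocytes and macrophages, had 1.91, 1.87 and 2.36 at 0.35 mM, against 4.56, 4.93 and 4.72 at 0.14 mM. It fell by 2.69 on the log2 scale (SE 0.41, adjusted p 0.00548). The interleukin-6 receptor chains Il6ra and Il6st fell by 1.18 and 1.09, and the interferon gamma receptor chain Ifngr1 fell by 0.97. Tnfrsf1b, a receptor of tumour necrosis factor, and Ccrl2, a decoy-like receptor, each rose by 1.88. Csf1r, which binds the macrophage growth factor, differed by -0.41 (adjusted p 0.208).

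Enzymes and acute-phase proteins made by activated macrophages rose in 7 of 29 cases and fell in 2 (1.39% and 2.64% of all genes did). Ptgs2, the inducible cyclooxygenase, had 7.11, 6.70 and 7.33 at 0.35 mM, against 3.23, 3.60 and 3.44 at 0.14 mM, a 12.3-fold rise (adjusted p 0.0218). Nos2, the inducible nitric oxide synthase, had 2.57, 1.93 and 1.59 at 0.35 mM, against -0.50, -0.13 and -0.26 at 0.14 mM, a 5.02-fold rise (adjusted p 0.00936). Its arrays at 0.35 mM were scattered (SD 0.50) and did not overlap with those of 0.14 mM. The siderophore-binding protein Lcn2 rose by 4.17, the pyrimidine enzyme Upp1 by 3.76, the protease inhibitor Slpi by 2.92, the gelatinase Mmp9 by 2.80 and urokinase (Plau) by 2.51. Acod1, which makes itaconate, had 7.94, 7.83 and 7.94 at 0.35 mM, against 3.23, 3.32 and 3.17 at 0.14 mM, and missed the call in the 25-array fit (adjusted p 0.0672) though not in the 6-array fit (3.95e-06). Icam1 and the leukotriene enzyme Alox5 fell by 0.94 and 1.13.

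Pooling the spread over all doses widened the error of several of these genes. At 0.7 mM Csf3 had -0.37, -0.31 and 6.86, and Acod1 had 2.72, 2.90 and 8.0, so that replicate 3 of 0.7 mM had values near those of 0.35 mM and the other arrays did not. That array also had a spike level of 2.22, against 0.96 and 1.06 on the other arrays of 0.7 mM, and the part of this level in the split was not tested. The SE of Csf3 was 1.61 although its SD was 0.13 at 0.35 mM and 0.12 at 0.14 mM. Arrays of 0 mM were spread as well for some genes. On replicates 1 to 4 of 0 mM Acod1 had 3.61, 0.64, 2.91 and 0.65, and Tnf had 4.14, 2.60, 4.54 and 2.87. Csf3 was not split there, at -0.31, -0.23, -0.57 and -0.06. Without 0.7 mM replicate 3 the count was 2061 probe sets, and without all 3 arrays of 0.7 mM it was 1912.

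Of 17 measured genes of NF-kB and its inhibitors 2 rose and 1 fell, where 1.39% and 2.64% of all genes did. Rel rose by 2.17 and Nfkbiz, a nuclear co-factor needed for Il6 and Lcn2, by 3.34, while the inhibitor Nfkbie fell by 1.85. Nfkbiz had 5.69, 5.30 and 5.96 at 0.35 mM, against 1.97, 2.62 and 2.33 at 0.14 mM (adjusted p 0.049). The feedback inhibitors Nfkbia (0.29, adjusted p 0.562) and Tnfaip3 (-0.14, adjusted p 0.94) overlapped between the doses. Nfkbia was bright at both, with 7.0, 6.81 and 7.27 at 0.35 mM, against 6.69, 6.83 and 6.69 at 0.14 mM. Of 23 Toll-like receptor genes and adaptors only Tlr3, the endosomal sensor of double-stranded RNA, rose (2.28, adjusted p 0.0364), and none fell. Of the 2 probe sets of Tlr3 1 was called, and its call was lost with the probe set of largest variance. Tlr4 (-0.68), Tlr2 (-0.49) and Myd88 (0.20) were not called.

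Feedback regulators of cytokine signalling rose in 4 of 22 cases, where 1.39% of all genes did. Socs3, which blocks signalling by the interleukin-6 family, had 5.20, 5.07 and 5.66 at 0.35 mM, against 1.98, 2.38 and 2.37 at 0.14 mM, and rose 8.37-fold (adjusted p 0.0358). The phosphatase Dusp5 rose by 2.46, the transcription factor Cebpd by 1.81 and the kinase Pim1 by 1.63. Dusp5 had 3.92, 3.50 and 3.62 at 0.35 mM, and 1.41, 3.54, 0.87 and 3.49 at 0 mM. Of 25 immediate early genes limma called 0, with 7 at an unadjusted p under 0.05, and their median of -0.042 became 0.036 after quantile normalization. The 6-array fit called 2 higher and 4 lower (3.55% and 4.89% of all genes). The lowest adjusted p in that list was that of Klf4, at 0.32, -0.11 and 0.49 at 0.35 mM, against 2.71, 3.07 and 3.03 at 0.14 mM (-2.70, adjusted p 0.0501 in the 25-array fit and 0.000342 in the 6-array fit).

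**Figure D2:**
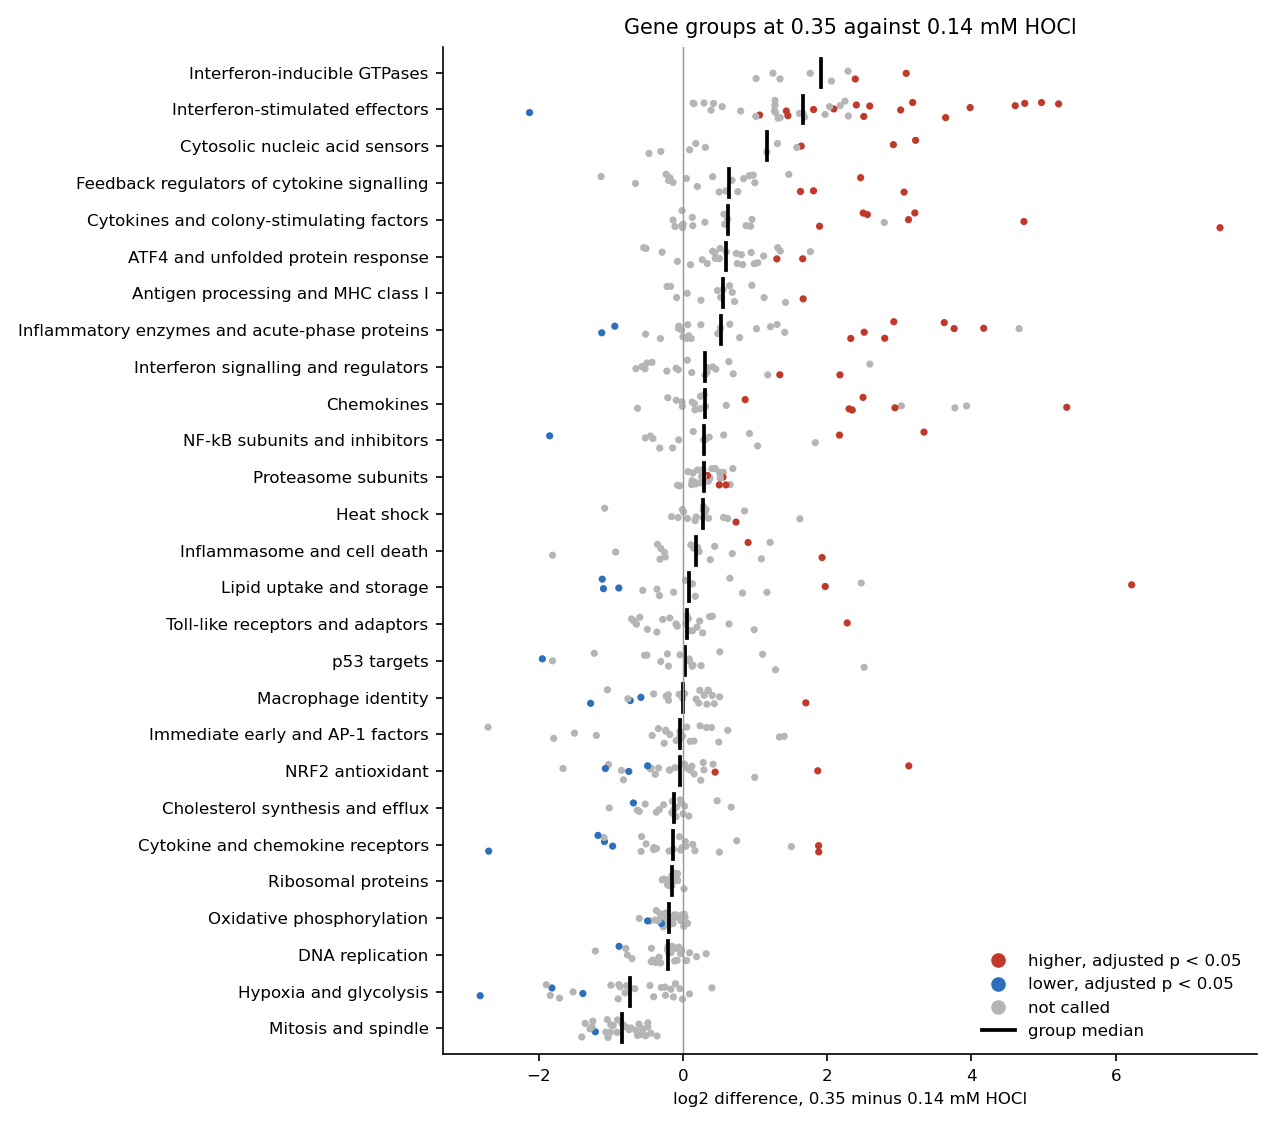
Log2 difference, 0.35 minus 0.14 mM HOCl (horizontal), of each measured member of 27 gene groups (rows), with 1 point per gene, coloured by the call of the 25-array limma fit, and a bar at the group median. The group medians run between 1.91 for interferon-inducible GTPases and -0.84 for mitosis and spindle genes.

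Lipid handling changed in both directions. Fabp4, a fatty acid carrier of macrophages and fat cells, had 5.57, 5.12 and 5.28 at 0.35 mM, against -0.98, -1.0 and -0.71 at 0.14 mM. This 74.6-fold rise (log2 6.22 ± 1.41 SE, adjusted p 0.022) was second to Csf3, and 2 of its 4 probe sets were called. Its relative Fabp5 had 7.70, 7.37 and 7.75 at 0.35 mM, against 5.47, 5.73 and 5.71 at 0.14 mM, and rose 3.93-fold. Lipoprotein lipase (Lpl, -1.12), lysosomal acid lipase (Lipa, -1.10) and the lipoprotein receptor Scarb1 (-0.89) fell. Lipa had 5.02, 4.88 and 5.02 at 0.35 mM, 6.00, 6.11 and 6.12 at 0.14 mM, and 5.18, 5.16, 5.42 and 5.11 at 0 mM. The fatty acid transporter Cd36 differed by 2.47 with an adjusted p of 0.0522. Of 21 cholesterol genes Hmgcs1 alone was called, and fell by 0.69 (2.64% of all genes fell).

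The NRF2 list had no common direction at this step, with 3 of 28 genes higher, 3 lower and a median of -0.044. Of all genes 1.39% were higher and 2.64% lower. Hmox1, heme oxygenase, had 6.59, 6.34 and 6.12 at 0.35 mM, against 4.44, 4.50 and 4.51 at 0.14 mM. It rose 3.65-fold (log2 1.87 ± 0.22 SE, adjusted p 0.000609), the lowest adjusted p among the named genes together with that of Tmem51. Slc7a11, the cystine importer that feeds glutathione synthesis, had 4.70, 4.33 and 4.80 at 0.35 mM, against 1.37, 1.51 and 1.55 at 0.14 mM, an 8.76-fold rise (adjusted p 0.00815). Glutathione synthetase (Gss) rose by 0.45. The glutathione peroxidases Gpx1 and Gpx4 fell by 1.07 and 0.75, and transaldolase (Taldo1) fell by 0.49, a call lost after centring on the brighter probe sets. Gclm, the modifier subunit of glutamate-cysteine ligase, differed by 0.42 (adjusted p 0.738) and Txnrd1 by 0.29 (adjusted p 0.649).

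Some genes of protein quality control rose, where 1.39% of all genes did. Among 31 proteasome subunits 29 had a positive difference, as did 52.2% of all genes, and the median was 0.29. Of these subunits 4 rose: Psmc6 (0.60), Psmd11 (0.56), Psmd2 (0.50) and Psmb7 (0.34). Psmb7 was not called in the 6-array fit (adjusted p 0.102 by limma). Only 1 of 3 probe sets of Psmc6 and 1 of 2 of Psmd2 had a positive difference. All 8 of Psmd11 did, and 2 of them were called. The 6-array fit called 7 of the 31 higher, and 3.55% of all genes. Hsp90aa1, the inducible HSP90, was the 1 of 19 heat shock genes to rise (0.74, adjusted p 0.0485), while Hspa1a (0.06) and Hspa1b (-1.08) were not called. Of 27 genes of the ATF4 and unfolded protein responses Mthfd2 (1.66) and Dnajc3 (1.30) rose, the median was 0.60, and 12 were higher in the 6-array fit. Of the 5 probe sets of Dnajc3 only 2 had a positive difference, and its probe set of largest variance, like those of Psmc6 and Cox5b, had the opposite sign. Mthfd2, a mitochondrial folate enzyme, had 4.79, 4.51 and 4.61 at 0.35 mM, against 2.78, 3.06 and 3.09 at 0.14 mM. At 0 mM it had 3.40, 5.00, 3.84 and 4.89, a range that holds the 0.35 mM values.

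In the 25-array fit 1022 probe sets were lower and 495 higher, but the balance turned to 848 lower and 1207 higher after centring on the brighter probe sets, and to 153 lower and 165 higher without 0.35 mM replicate 2. Lsp1, an actin-binding protein of leukocytes, had the largest fall, with 1.36, 1.10 and 1.09 at 0.35 mM, against 4.47, 4.77 and 4.57 at 0.14 mM (10.7-fold lower, adjusted p 0.0251). Cldn11, a claudin, had -0.41, -0.91 and -0.31 at 0.35 mM, against 2.54, 2.98 and 2.93 at 0.14 mM, 10.3-fold lower (adjusted p 0.00815). Htr1b, a serotonin receptor, had 0.81, -0.06 and 1.50 at 0.35 mM, against 3.80, 4.08 and 3.92 at 0.14 mM (9.09-fold lower, adjusted p 0.00554). The arrays of each of these 3 genes did not overlap, and those of Htr1b were scattered at 0.35 mM (SD 0.78). Slc43a2, an amino acid transporter, fell by 3.18 (adjusted p 0.00654), and Tmem51 fell by 2.27 with the smallest SE of the largest falls (0.27). Other large falls were those of the oxysterol receptor Gpr183 (-2.77), the integrin chain Itga4 (-2.20), Cd24a (-2.55) and the inhibitory receptor Cd300a (-2.29). Itga4 had 4.63, 4.24 and 4.66 at 0.35 mM, against 6.66, 6.72 and 6.76 at 0.14 mM. The scaffold protein gene Ahnak (-2.59), the collagen chain gene Col4a5 (-2.35) and the lysosomal sulfatase gene Arsb (-2.35) fell as well.

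**Figure D3:**
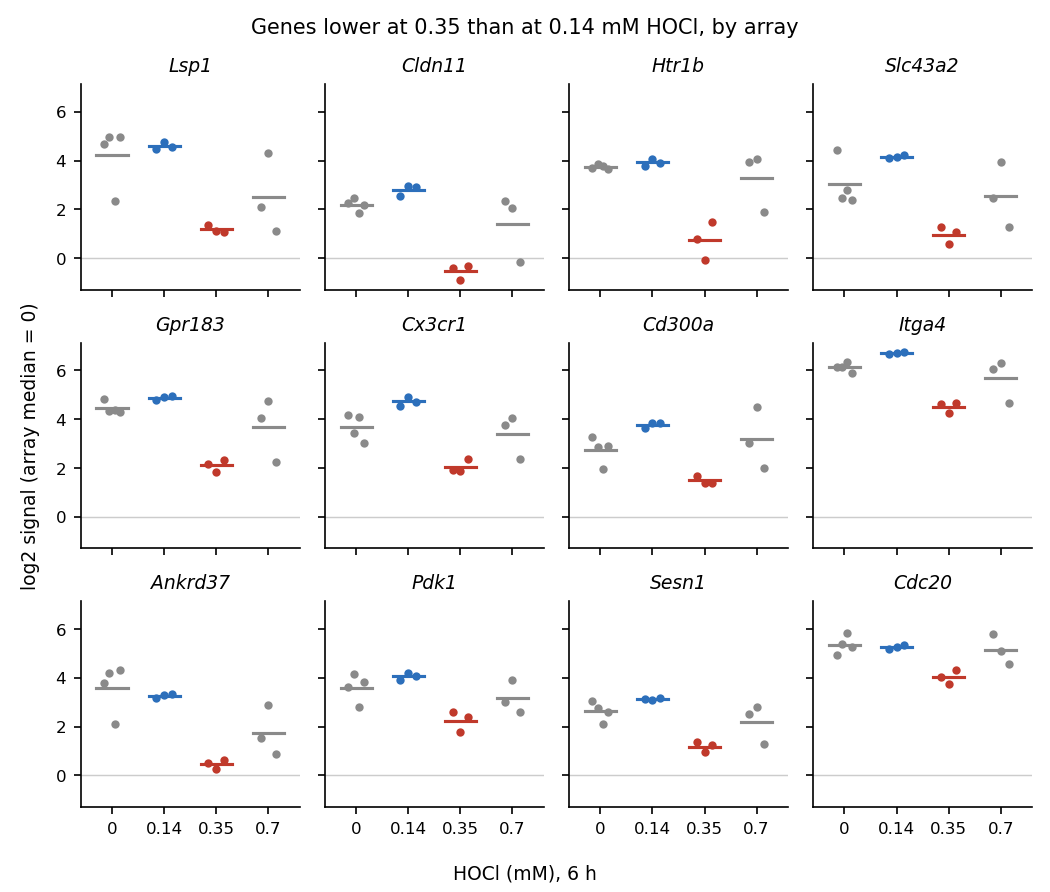
Log2 signal (vertical, array median 0) of 12 genes that were lower at 0.35 mM, by HOCl dose (horizontal, mM), with 1 point per array and a bar at the dose mean. The 3 arrays of 0.35 mM lie below the 3 of 0.14 mM in every panel, with the widest gap for Lsp1.

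Genes of hypoxia and glycolysis had a median difference of -0.73, and 3 of 27 fell with none higher (2.64% of all genes fell). Ankrd37, a target of hypoxia-inducible factor, had 0.50, 0.26 and 0.62 at 0.35 mM, against 3.18, 3.31 and 3.33 at 0.14 mM, and fell by 2.81 (adjusted p 0.0264). Pdk1, which keeps pyruvate out of the mitochondrion, fell by 1.82, and Egln1, the oxygen sensor of the pathway, by 1.39. Bnip3 (-1.84), Ndrg1 (-1.89) and Adm (-1.71) were called in the 6-array fit only. In that fit 11 of the 27 were lower, against 4.89% of all genes. The glycolytic enzymes Ldha (-0.13), Pgk1 (-0.10) and Pkm (-0.17), all near 7.8 at 0.35 mM, were called in neither fit. Of 29 oxidative phosphorylation genes Uqcrfs1 (-0.49) and Cox5b (-0.30) fell, while both lost the call after centring on the brighter probe sets, and Cox5b also after quantile normalization and in the 6-array fit.

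All 29 mitosis and spindle genes had a negative difference, with a median of -0.84, whereas 52.2% of all genes had a positive one. The 0.35 mM arrays lay below all 0.14 mM arrays for 26 of the 29, against 11.9% of all probe sets. In the 25-array fit 1 of the 29 fell (2.64% of all genes did), and in the 6-array fit 18 did (4.89% of all genes). Cdc20, an activator of the anaphase-promoting complex, had 4.03, 3.75 and 4.33 at 0.35 mM, against 5.17, 5.24 and 5.35 at 0.14 mM, and fell by 1.21 (adjusted p 0.049). That call was lost after centring on the brighter probe sets and without any single array of either dose. Cenpa, the centromere histone, had 3.58, 3.43 and 3.57 at 0.35 mM, against 4.73, 4.80 and 4.84 at 0.14 mM (-1.26, adjusted p 0.0704). Mki67, the proliferation antigen Ki-67, differed by -1.07 (adjusted p 0.216) and Ccnb2, a mitotic cyclin, by -1.40 (adjusted p 0.444). The 30 DNA replication genes had a median of -0.20, and E2f2 alone was called (-0.89). Among p53 targets Sesn1 alone was called, and fell by 1.95 (adjusted p 0.00654), while Cdkn1a differed by 0.51 (adjusted p 0.447).

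Of the 25 macrophage genes 1 rose and 3 fell, where 1.39% and 2.64% of all genes did. The macrophage genes had a median of -0.00069. Fcgr2b, the inhibitory Fc receptor, was higher by 1.70 and Adgre1, an adhesion receptor, lower by 1.28, along with Lgals3 (-0.58) and Laptm5 (-0.73). Lyz2 was at 8.35, 8.26 and 8.30 at 0.35 mM, against 8.27, 8.32 and 8.25 at 0.14 mM, and Cd68 differed by -0.051. C1qa, C1qb and C1qc, which many tissue macrophages express, averaged -0.24, -0.65 and -0.65 at 0.35 mM, under the array median. Actb differed by 0.10 (adjusted p 0.855), and limma called 0 of 18 ribosomal protein genes, with 5 at an unadjusted p under 0.05. Of 32 markers of lymphocytes, dendritic cells and stromal or epithelial cells limma called 0, also with 0 at an unadjusted p under 0.05. The means of these 3 lists on single arrays ran between -0.26 and 0.09 at 0.35 mM and between -0.31 and 0.01 at 0.14 mM, while single markers averaged between -1.25 and 1.56 at 0.35 mM and between -1.38 and 1.56 at 0.14 mM. Of 10 neutrophil markers S100a8 alone rose, with 4.10, 4.18 and 3.90 at 0.35 mM, against -0.32, -0.42 and -0.49 at 0.14 mM (22.2-fold, adjusted p 0.0204), whereas S100a9, Elane, Mpo and Prtn3 averaged between -0.80 and -0.15. The part of these other cell types in the results was not tested. The neutrophil list mean ran between 0.09 and 0.32 at 0.35 mM and between -0.44 and -0.21 at 0.14 mM. Of 10 osteoclast markers Mmp9 alone rose, and Ctsk, Acp5 and Calcr averaged 0.50, 0.085 and -1.29 at 0.35 mM. Since a whole culture was measured, a change in the share of cells and a change in RNA per cell cannot be told apart.

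**Figure D4:**
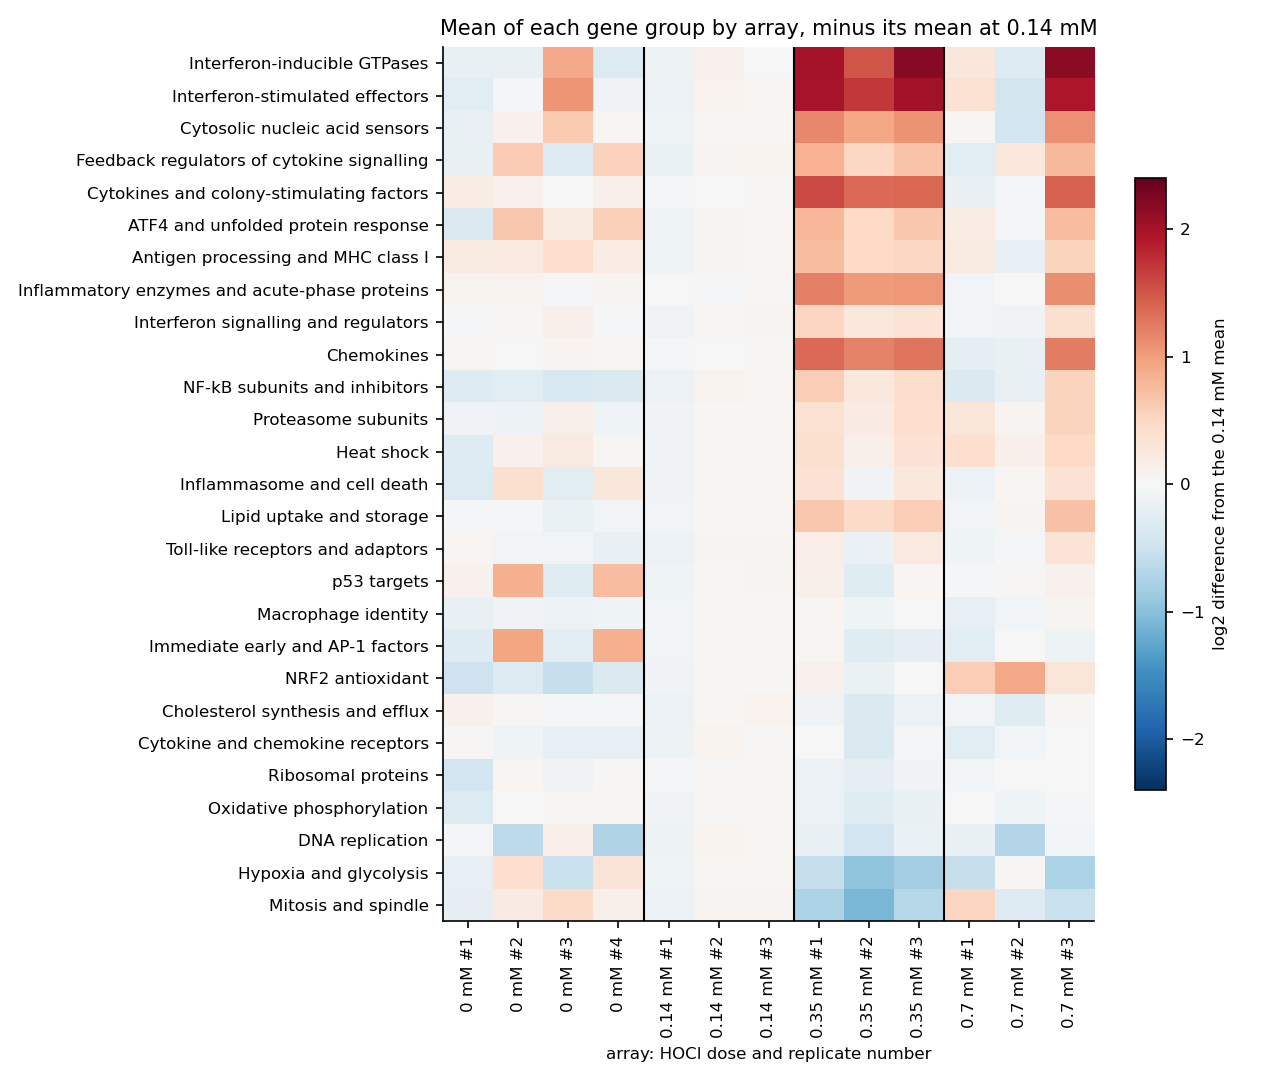
Mean log2 signal of 27 gene groups (rows) on each array of 0, 0.14, 0.35 and 0.7 mM HOCl (columns), less the group's mean at 0.14 mM (colour, log2). The interferon and cytokine groups are high on the 3 arrays of 0.35 mM and on 0.7 mM replicate 3, the NRF2 group is highest on 0.7 mM replicates 1 and 2, and 0 mM replicate 3 is raised in the interferon groups.

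The neighbouring doses place this step in the series, and comparisons that share the 0.14 or 0.35 mM arrays are not independent of it. In the 25-array fit 2 probe sets were called at 0.14 against 0 mM (0.00444%), 2898 at 0.35 against 0 mM (6.43%) and 5 at 0.7 against 0.14 mM (0.0111%). At 0.7 against 0.35 mM limma called 0 probe sets, with 2990 at an unadjusted p under 0.05. Some genes called at the step were not called by limma at 0.35 against 0 mM. Examples are Lipa (-0.24, adjusted p 0.584), Icam1 (-0.25, 0.391), Nfkbie (-0.91, 0.119), Mthfd2 (0.36, 0.625) and Dusp5 (1.35, 0.209). Others were called there, such as Csf3 (7.31, adjusted p 0.0102), Ccl2 (5.27, 0.0135) and Lsp1 (-3.05, 0.0212). The interferon-stimulated effectors averaged 2.55, 2.77, 3.85 and 2.72 on the arrays of 0 mM, 2.66, 2.89 and 2.83 at 0.14 mM, 4.77, 4.50 and 4.80 at 0.35 mM, and 3.16, 2.35 and 4.73 at 0.7 mM. The 0.7 mM arrays were thus split for this group, with replicate 3 at the 0.35 mM level. Hmox1 behaved differently: it was at 4.18, 4.24, 3.42 and 4.38 at 0 mM, 4.44, 4.50 and 4.51 at 0.14 mM, 6.59, 6.34 and 6.12 at 0.35 mM, and 6.91, 7.03 and 6.64 at 0.7 mM. All 3 of its 0.7 mM arrays were therefore above those of 0.35 mM. Gclm was at 4.91, 5.11 and 5.02 at 0.14 mM, 5.60, 5.43 and 5.25 at 0.35 mM, and 6.76, 7.18 and 6.00 at 0.7 mM, with replicate 3 the lowest at 0.7 mM.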

How the data were processed

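The authors deposited log2 signals per probe set from Affymetrix arrays (Mouse 430 2.0). Intensities were extracted with Array Assist, per the labels' design text, and RMA is named in the submitters' processing notes with its version and settings not given in the sources used here. Every array has a median of 0, and the base of the log, taken as 2, follows only from the range that the values cover, so each fold rests on it. Detection calls and raw intensities were not used here. The 64 Affymetrix controls were removed from 45101 probe sets, and the remaining 45037 were all tested. A gene is the brightest of its probe sets with 1 symbol (34945 probe sets, 18193 genes), while 932 had several symbols and 9160 none. The model, in limma 3.58.1 (R 4.3.3), had 1 mean for each dose and used the 25 arrays together (17 residual and 2.99 prior degrees of freedom, two-sided), and p-values were adjusted by Benjamini and Hochberg over all probe sets. The scripts were tested on simulated data.

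Named genes were the 15 largest rises and 15 largest falls past an adjusted p of 0.05 without overlap of the arrays, up to 4 members of each of 32 gene lists with the lowest p, and a set of fixed genes. Other list members are named as examples or where a contrast within a list needs them, and were chosen after their values were seen. The members and lists were chosen with earlier results of these data known. Of 734 list entries 668 were measured. Alternatives were the set of arrays in the fit, scaling, filter, variance prior, array weights, spike level, replicate block, choice of probe set and omission of each array. No pairing by replicate number was seen: deviations from the dose means of arrays with the same number correlated at -0.428, -0.698 and 0.304. The highest correlation, 0.752, joined 0.35 mM replicate 2 and 0.14 mM replicate 1, which had the lowest upper quartiles. The width of the distributions enters these values, so they cannot exclude a pairing. Nothing beyond the design text says how cultures were separated, so p-values cover the spread between these arrays, whose number limits the precision.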

Additional observations from a re-analysis of the deposited data

Results flagged for a closer look

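The means of 5 of 32 gene lists had 1 array of the 4 at 0 mM far from the other 3, by a test that chance alone passes in about 5% of groups. Replicate 3 of 0 mM stood high in the interferon-stimulated effectors, at 3.85 against 2.55 to 2.77 on the others, in the interferon-inducible GTPases, at 1.50 against 0.27 to 0.41, and in the proteasome subunits, at 5.50 against 5.23 to 5.26. Replicate 1 of 0 mM stood low in oxidative phosphorylation, at 5.46 against 5.79 to 5.83, and high in the dendritic cell markers, at 0.13 against -0.014 to -0.0087. These arrays enter the comparison of 0.35 with 0.14 mM only through the pooled spread. The test looks for 1 outlying array and cannot flag arrays that part in pairs. On replicates 1 to 4 of 0 mM the immediate early genes averaged 2.20, 3.46, 2.26 and 3.37. The DNA replication genes averaged 3.77, 3.16, 3.95 and 3.07 on the same arrays.

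The poly-A spike probe sets, which are not among the probe sets tested and enter only the settings that use the spike level, averaged 1.75 on 0.35 mM replicate 3, above the 5 other arrays of the comparison.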

How the results depend on the processing

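Against 1517 called probe sets (495 higher, 1022 lower, 792 at least 2-fold), the fit to 6 arrays gave 2815 (1159, 1656 and 1258) and, with quantile normalization, a setting chosen after seeing the data, 4387 (2049, 2338 and 1326). The spike level as a term gave 512 (100, 412 and 288), and 1 probe set per gene tested alone gave 809 (279, 530 and 410) because fewer were tested. Array weights, whose estimation stopped before its tolerance, gave 20057 (10233, 9824 and 1430). Higher calls numbered 813 with the 10 arrays of the 3 lowest doses, 810 without 0.7 mM, 1022 after quantile normalization and 1207 after centring on the brighter probe sets. Leaving out 1 array in turn gave 25 to 2061 calls in the 25-array fit (4 to 852 higher, 21 to 1391 lower, 19 to 1009 at least 2-fold). In the 6-array fit, an omission added after seeing the data, it gave 843 to 4503 (457 to 2427 higher, 386 to 2076 lower, 718 to 1407 at least 2-fold): 951 (449 lower) without 0.14 mM replicate 2, and 2644 (956 higher, 1688 lower, 1353 at least 2-fold) without 0.35 mM replicate 3. The cause of these shifts was not tested. No paired analysis applies, since the numbers do not pair the arrays; with the replicate block as a term 1302 were called (454 higher, 848 lower), and 6 of 92 named calls were lost.

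With the probe set of largest variance, 4 of 161 named genes changed sign: Map3k7 to -1.01, Psmc6 to -0.35, Dnajc3 to -1.02 and Cox5b to 0.22. That setting lost 8 of the 92 named calls and gained 9. The calls lost were those of Tlr3, Psmd11, Cdc20, Hmgcs1, Lipa, Laptm5, Fcgr2b and Mmp9. No other setting reversed a named gene. Detection calls were not used here, so folds of genes at or below the array median, Csf3 and Il6 at 0.14 mM among them, have an unknown floor.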

Other observations

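Below the 15 largest differences, the next 30 in each direction were read in order of size, a choice made after their values were seen. They are taken from 252 genes that rose, and the genes named here are examples. Cd69, an early activation antigen, had 1.47, 0.89 and 1.50 at 0.35 mM, against -1.44, -1.43 and -1.32 at 0.14 mM (2.68, adjusted p 0.0154 by limma). Cd93 rose by 2.78 and the aminopeptidase Anpep by 2.85, with a wide spread of 3.92, 2.98 and 2.21 at 0.35 mM. The redox protein glutaredoxin (Glrx) rose by 2.58, to 6.24, 6.25 and 6.72 at 0.35 mM, against 3.72, 3.90 and 3.84 at 0.14 mM. Serpinb2, plasminogen activator inhibitor 2, rose by 3.56 and Phlda1 by 3.59. Ifi202b, a further member of the p200 family to rise beside Ifi204 and Ifi209, was bright at both doses, with 7.05, 6.82 and 7.04 at 0.35 mM, against 3.70, 4.01 and 3.89 at 0.14 mM.

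The next falls are given as examples too. Trem2, a lipid-sensing receptor, had 3.21, 3.28 and 3.20 at 0.35 mM, against 4.99, 5.11 and 5.15 at 0.14 mM (-1.85, adjusted p 0.0197). Cebpa, a myeloid transcription factor, fell by 2.12 while its relative Cebpd rose by 1.81. The neighbouring genes Tmem176a and Tmem176b fell by 1.80 and 2.18, and the histone variants H2ax and H2az2 by 2.20 and 1.87. Cks2, a partner of cyclin-dependent kinases, fell by 1.83 and the spindle protein Psrc1 by 1.83.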
